A study of Rattus norvegicus with 8 samples.

Results

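The genes described here encode the voltage-gated sodium channels, the voltage-gated calcium channels, the hyperpolarization-activated HCN channels and the sodium leak channel NALCN. Members were taken by gene symbol alone: pore-forming sodium subunits (Scn genes ending in a), sodium beta subunits (Scn genes ending in b), calcium alpha1 subunits (Cacna1a to Cacna1i), and the Cacna2d, Cacnb, Cacng, Hcn and Nalcn genes. They came to 314 polyadenylation sites under 39 symbols, of 98356 sites and 18003 symbols in the whole data set. The 5 further symbols that the same rule would take, Cacna1f, Cacng1, Hcn2, Hcn4 and Scn10a, had no site under their name and were not analysed here.

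Libraries were made by WTTS-Seq, which reads the 3′ ends of polyadenylated transcripts, from the hypothalamus of adult male Long-Evans rats. The 4 air control libraries (replicates 1, 2, 3 and 4) came from rats placed in the same vapor chambers with an empty vaporizer, and the 4 cannabis libraries (replicates 1, 2, 3 and 5) came from rats exposed for 10 min to vapor from cannabis plant matter (7.8% THC, 0.5% CBD). Tissue was taken 1 hr after exposure in both groups, and food was withheld from both during that hour. Each library is taken here as 1 rat. The comparison addresses whether a single acute exposure alters which 3′ ends are used, and how much, in hypothalamic transcripts.

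Voltage-gated sodium channels carry the upstroke of the action potential, and their beta subunits tune gating and anchor the pore at the membrane. Voltage-gated calcium channels turn depolarization into calcium entry that drives transmitter and hormone release, pacemaking and transcription, with a pore (alpha1) subunit that is trafficked and tuned by alpha2delta and beta subunits. HCN and NALCN channels pass inward currents near the resting potential and so help to set the firing of neurons, including the neuroendocrine cells of the hypothalamus.

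A library's values are reads divided by a size factor, called normalized counts below. One read marks 1 transcript end, so a gene total (the sum over the sites of a symbol) was not divided by transcript length and does not grow with it. Libraries held between 1159811 reads (air control 4) and 3706778 reads (cannabis 2), of which 3552 to 8815 fell on channel sites, and 1 read was worth between 0.664 and 1.99 normalized counts. Air control 4 and cannabis 1 stood apart from the other libraries before any comparison was made: 26.1% and 17.0% of all sites had no read in them, against at most 10.3% in the other 6. Summed markers of hypothalamic neurons (11 of 12 listed genes had a site, Npy not) ranged from 3290 to 5635 normalized counts in air control and from 7471 to 9503 in cannabis libraries, while summed markers of midbrain dopamine neurons (9 of 10 with a site, Chrna6 not) ranged from 864 to 1105 and from 285.6 to 445. Neither sum overlapped between the groups, with Avp, Oxt and Nkx2-1 higher and Slc6a3, Th, En1 and Ddc lower in cannabis libraries at P under 0.05 in limma. No other gene of either list had P under 0.05. A sum follows its most-read genes, so its range need not hold for each gene of the list. Summed thalamus and cortex markers (4 of 6 with a site) did not overlap either, at 259 to 270.5 and 272 to 324, with no gene of the list at P under 0.05. Summed general neuronal markers overlapped, from 2811 to 3330 in air control and 2658 to 3360 in cannabis libraries, as did the lists for astrocytes, oligodendrocytes and their precursors (of which Cspg4 was lower in cannabis libraries), microglia, endothelium, choroid plexus and anterior pituitary. The part of this difference in tissue markers in the channel results was not tested, and in bulk tissue fewer cells of a type and less RNA per cell cannot be told apart.

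At the depth of these libraries most channel sites were read rarely. The median channel site had 35 reads over the 8 libraries together, close to the 34 of the median site overall. A mean of at least 10 normalized counts was reached by 68 of the 314 sites and a mean of at least 100 by 13. Channel genes had more sites than most, with a median of 5 sites per gene against 2 over all symbols, and a median gene total of 65.7 against 23.5 normalized counts.

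The comparison of cannabis with air control called no channel site, gene total or site share at the thresholds used. No site passed P under 0.01 by limma, where 0.381% of all 98356 sites did. No gene total passed P under 0.05, where 2.41% of all 18003 symbols did, or P under 0.01, where 0.278% did, and edgeR and DESeq2 run on the recovered reads also called 0 of 39 totals (their backgrounds were 2.52% and 2.18%). Of 308 channel sites in genes with at least 2 sites, none changed its share of the gene at P under 0.01, where 0.389% of all such sites did. At an unadjusted P under 0.05 limma passed 6 of the 314 sites, a share of 1.91% beside 3.03% of all sites, while edgeR passed 8 (2.91% of all sites) and DESeq2 passed 3 of 312 (1.86%). For shares, 3 of 308 passed P under 0.05, which is 0.974% beside 3.08% of all shares. After Benjamini-Hochberg adjustment over each whole table, none of the members passed 0.1 by limma, where 0.00102% of all sites, 0.00555% of all gene totals and no share passed.

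Each gene total, taken alone, gives a 95% interval for the difference in 3′ end reads between the groups. Of the 39 totals, 19 had a higher and 20 a lower fitted value in cannabis libraries, and the log2 fold changes, which are on the log2(normalized count + 1) scale and understate changes of rarely read genes, ran from -0.51 (Scn11a) to 0.49 (Hcn3). Their median was -0.01, beside 0.05 over all gene totals. The 95% interval of the difference lay within a 2-fold change in either direction for 28 of the 39 genes. That held for all 14 genes with a mean total of at least 100 normalized counts, and Cacna2d2, for example, had interval bounds of 0.608-fold and 1.92-fold. The 7 genes with a mean total under 10 were Cacna1i, Cacna2d4, Cacng6, Cacng7, Hcn3, Scn11a and Scn4b, and in them a 2-fold change could have been missed. These 7 cannot account for every interval that went beyond 2-fold, so some genes with a mean total between 10 and 100 had such intervals. The smallest detectable change was not calculated.

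**Figure D1:**
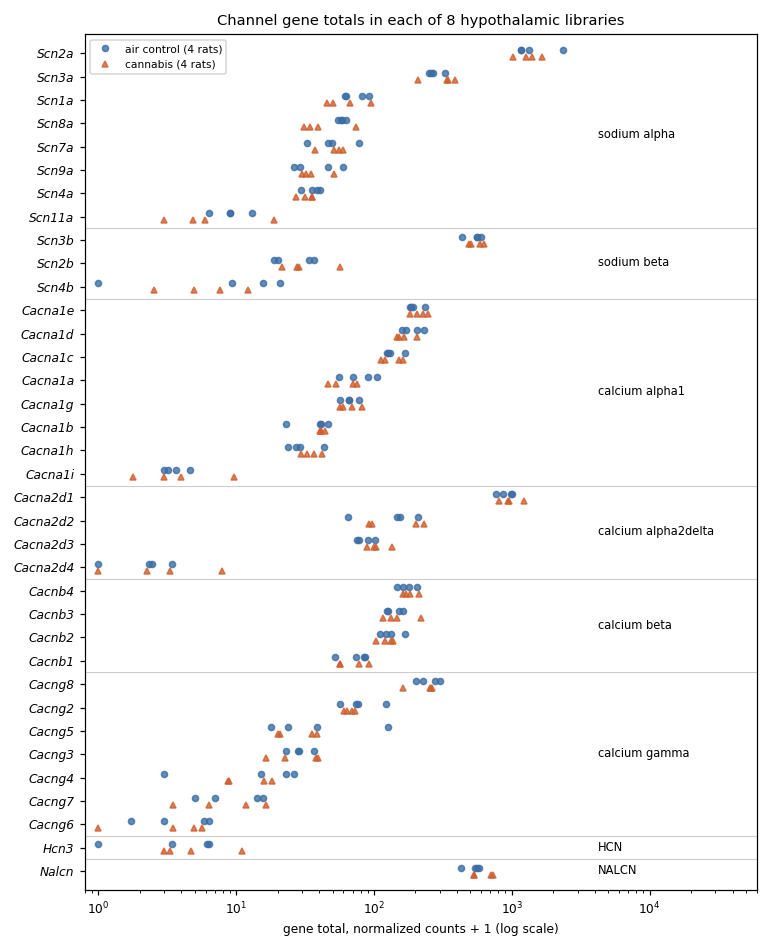
Gene totals of 36 channel genes (normalized counts + 1, log scale) in each of 4 air control (circles) and 4 cannabis (triangles) libraries, ordered by mean within each family. The 2 groups overlap for every gene shown, and totals run from near 0 to 2345 normalized counts (Scn2a, air control 4).

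**Figure D2:**
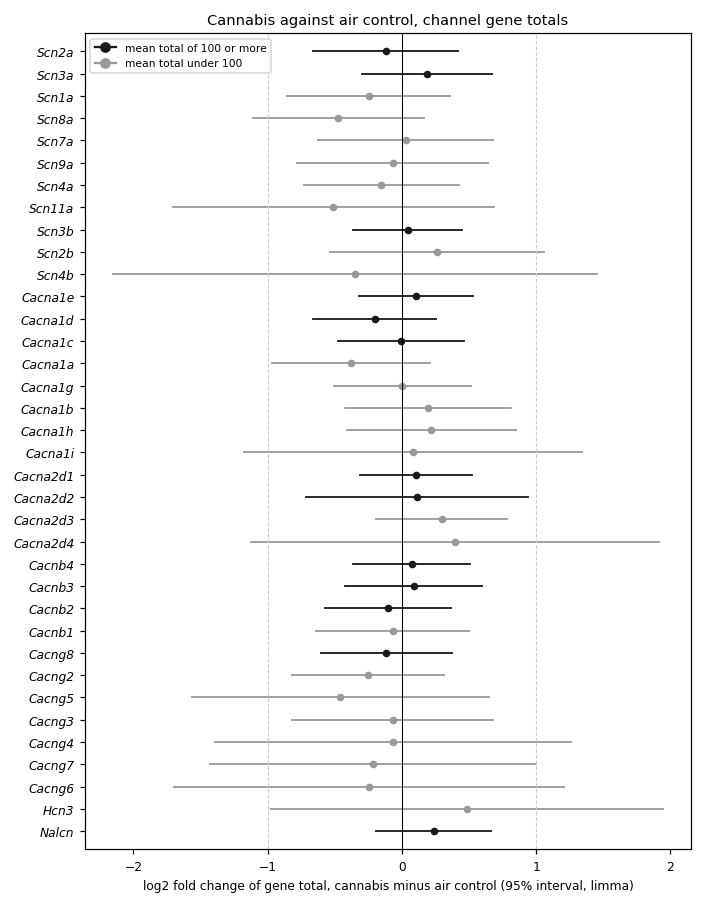
Log2 fold change of 36 channel gene totals, cannabis minus air control, with its 95% interval from limma, for genes with a mean total of at least 100 (dark) or under 100 (grey) normalized counts. Every interval shown includes 0, and dashed lines mark 2-fold in either direction.

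Among the pore-forming sodium channel genes, reads came mostly from Scn2a, the neuronal channel of axon initial segments and unmyelinated axons. Its total was 1162, 1323, 1160 and 2345 normalized counts in air control 1 to 4 and 1659, 1024, 1260 and 1396 in cannabis 1, 2, 3 and 5. Air control 4 lay far above the other 7 libraries, and the groups overlapped. Scn2a made up 68.7% ± 6.5 (SD, n = 4) of the summed sodium alpha reads in air control and 65.6% ± 2.6 in cannabis libraries. Its log2 fold change was -0.12 (SE 0.25, limma P = 0.637, exact permutation P = 0.743).

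Part of the Scn2a signal came from a site whose strand is opposite to that of the other positioned sites of the gene. Sites are numbered within a gene from the most to the least read. In the rat genome build Rnor_6.0, Scn2a site 1 lies on chromosome 3, plus strand, at chr3:51822185-51822483, in a class the study calls extended distal (beyond the annotated end of the gene), and site 3 lies in an exon at chr3:51819615-51819882, 2570 bases away on the same strand. Site 2 is intronic, at chr3:51692851-51692860, but on the minus strand and 129334 bases from site 1. It held 202, 408, 271 and 953 normalized counts in air control 1 to 4 and 339, 165, 351 and 296 in cannabis libraries. The site made up 40.6% of the Scn2a total of air control 4 and 16.1% to 30.9% of the totals of the other libraries. Without this site the Scn2a total was 1039 ± 237 (SD, n = 4) in air control and 1047 ± 210 in cannabis libraries, a log2 fold change of 0.01 (SE 0.22, limma P = 0.946, exact permutation P = 0.971).

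Scn3a, a neuronal sodium channel known for high expression in the developing brain, was next. Its total was 257, 268, 250 and 328 in air control and 386, 209, 343 and 340 in cannabis libraries, with overlapping groups and a log2 fold change of 0.19 (SE 0.22). Its most-read site, an exonic site on the minus strand at chr3:51530891-51530904, carried 81.2% ± 2.3 of the gene in air control and 85.0% ± 5.3 in cannabis libraries.

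Scn1a, the channel prominent in fast-spiking inhibitory neurons, totalled 73.6 ± 14.7 (SD, n = 4) in air control and 63.7 ± 22.5 in cannabis libraries. Scn8a, the principal channel of nodes of Ranvier and mature initial segments, totalled 61.4, 56.3, 57.7 and 53.6 in air control and 38.5, 72.4, 33.5 and 30.0 in cannabis libraries. In cannabis, 3 libraries lay below and 1 above all air control libraries, so the groups overlapped (log2 fold change -0.47, SE 0.30, limma P = 0.133, exact permutation P = 0.171). Without cannabis 2, the high library, the Scn8a total had limma P = 0.0156 (exact permutation P = 0.0571, adjusted P of 0.999). Its site 1 then had limma P = 0.00392 (exact permutation P = 0.0571, adjusted P of 1.00). This exact permutation P was the smaller tail, doubled, and 0.0571 is the smallest value which that doubling allows for 4 against 3 rats. The absolute difference of the group means could give a smaller exact permutation P, which was not computed. Scn7a, a sodium-sensing channel relative, was at 50.5 ± 18.9 and 49.8 ± 9.8, Scn9a, known from sensory neurons, at 39.3 ± 15.7 and 36.1 ± 9.6, and Scn4a, known from skeletal muscle, at 35.0 ± 4.7 and 31.4 ± 4.0 in air control and cannabis libraries. Scn11a, a channel of pain-sensing neurons, was at 8.33 ± 2.72 and 7.13 ± 7.16.

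The sodium beta subunits were dominated by Scn3b, which held 90.9% ± 3.1 (SD, n = 4) of the family in air control and 91.1% ± 3.5 in cannabis libraries. Its total was 594, 557, 432 and 554 in air control and 487, 585, 623 and 505 in cannabis libraries, and the log2 fold change was 0.05 (SE 0.19, limma P = 0.815, exact permutation P = 0.80). Its most-read site lies at the annotated distal end of the gene (chr8:44158986-44159326, plus strand). Scn2b totalled 26.4 ± 9.2 and 32.7 ± 15.8. Scn4b, a beta subunit linked to resurgent sodium current, had a single site with 19.7, 8.4, 14.8 and 0 normalized counts in air control and 11.2, 6.6, 3.9 and 1.5 in cannabis libraries. The 0 in air control 4, the shallowest library, allows up to 5.96 normalized counts (3 reads, covering counting error only). Without air control 4 the Scn4b total had limma P = 0.0338 (exact permutation P = 0.114), and without both air control 4 and cannabis 1 it had limma P = 0.00811 (exact permutation P = 0.10, the smallest that 3 against 3 can give), with adjusted P of 1.00 and 0.999.

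Among the calcium channel pores, Cacna1e (R-type) and the L-type genes Cacna1d and Cacna1c were the most read. Cacna1e totalled 192, 181, 185 and 234 in air control and 225, 181, 203 and 244 in cannabis libraries, a log2 fold change of 0.10 (SE 0.20). Cacna1d, a channel that opens at low voltages and takes part in pacemaking, totalled 231, 170, 205 and 159 and then 150, 145, 163 and 204, a log2 fold change of -0.20 (SE 0.21). Cacna1c totalled 125, 123, 130 and 167 and then 161, 112, 120 and 151, a log2 fold change of -0.01 (SE 0.22). The 3 genes overlapped between groups, and Cacna1e and Cacna1d also overlapped each other, at 26.8% ± 2.6 and 25.9% ± 3.9 (SD, n = 4) of the alpha1 reads in air control. The presynaptic P/Q-type gene Cacna1a was at 79.2 ± 21.3 and 60.3 ± 13.8, and the N-type gene Cacna1b at 36.7 ± 10.3 and 40.8 ± 1.6. The T-type genes, which pass current near rest and feed burst firing, ran in the order Cacna1g (65.4 ± 8.6 and 65.9 ± 11.2), Cacna1h (29.8 ± 8.6 and 34.2 ± 5.4) and Cacna1i (2.61 ± 0.71 and 3.60 ± 3.51).

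Cacna2d1, the alpha2delta subunit bound by gabapentin drugs, was the most-read calcium channel gene. Its total was 772, 869, 1003 and 983 in air control and 812, 952, 935 and 1217 in cannabis libraries, with a log2 fold change of 0.10 (SE 0.19, limma P = 0.604, exact permutation P = 0.571). It held 79.7% ± 5.0 (SD, n = 4) of its family in air control and 78.6% ± 5.1 in cannabis libraries. Cacna2d2 totalled 154, 206, 146 and 63.6 in air control and 90.7, 230, 202 and 95.2 in cannabis libraries. Its lowest values were in air control 4, cannabis 1 and cannabis 5. Cacna2d3 totalled 74.6, 89.8, 77.2 and 101.3 in air control and 134, 88.3, 99.4 and 102 in cannabis libraries. Cacna2d4 was at 1.30 ± 0.99 and 2.61 ± 3.004.

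No single gene dominated the beta subunits, which bind the alpha1 pore inside the cell, and Cacnb1 was the least read. Cacnb4 led with 161, 145, 178 and 205 in air control and 210, 161, 169 and 182 in cannabis libraries (log2 fold change 0.07, SE 0.20), which was 33.3% ± 4.0 and 34.4% ± 3.7 (SD, n = 4) of the family. Cacnb3 totalled 140 ± 19 and 152 ± 46, Cacnb2 132 ± 25 and 122 ± 15, and Cacnb1 73.1 ± 15.6 and 69.8 ± 16.9.

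Most Cacng reads came from AMPA receptor auxiliary subunits (TARPs), which share sequence with the muscle calcium channel gamma subunit. Cacng8 totalled 276, 302, 200 and 226 in air control and 253, 258, 261 and 160.5 in cannabis libraries, and cannabis 5 was the lowest of the 8. Its log2 fold change was -0.12 (SE 0.23, limma P = 0.621, exact permutation P = 0.60), and its most-read site is an extended distal site on the minus strand at chr1:64329399-64329419. Cacng2, the gene disrupted in the stargazer mouse, totalled 81.7 ± 28.4 (SD, n = 4) and 65.7 ± 5.4, Cacng3 28.1 ± 5.8 and 28.2 ± 11.5, and Cacng4 15.8 ± 10.3 and 11.9 ± 4.9. Cacng5 totalled 16.8, 22.7, 37.6 and 125 in air control and 19.9, 34.5, 37.4 and 19.2 in cannabis libraries. The value of air control 4 rested on 1 site, Cacng5 site 2, which had 111 normalized counts there and at most 6.89 in the other libraries. Cacng7 was at 9.44 ± 5.23 and 8.50 ± 5.74 and Cacng6 at 3.22 ± 2.22 and 2.77 ± 2.05.

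Hcn3, an HCN gene, was read little, at 3.22 ± 2.53 (SD, n = 4) normalized counts in air control and 4.49 ± 3.73 in cannabis libraries.

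Nalcn, whose channel carries the background sodium leak, was the third most-read channel gene, after Scn2a and Cacna2d1, by the mean of all 8 libraries. In air control alone Scn3b averaged slightly more (534 against 528). The Nalcn total was 541, 563, 581 and 427 in air control and 528, 733, 708 and 533 in cannabis libraries. In cannabis, 2 libraries lay above every air control library and 2 lay inside their range, with means of 528 ± 69 and 625 ± 110 (SD, n = 4), a log2 fold change of 0.24 (SE 0.20), limma P = 0.253 and exact permutation P = 0.286. The 95% interval ran from 0.876-fold to 1.59-fold. Its most-read site is an extended distal site on chromosome 15, minus strand (chr15:109734062-109734077).

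Genes whose products bind or regulate these channels were examined from a fixed list of 28, of which 24 had a site. None of the 24 totals had limma P under 0.05, beside the 2.41% of all symbols, and their median log2 fold change was 0.00. They included Ank3, which anchors sodium channels at the axon initial segment (750 ± 116 and 726 ± 153, SD, n = 4), Rims2, which ties calcium channels to the release site (753 ± 98 and 712 ± 200), and Fgf14, which binds the sodium channel tail (396 ± 38 and 416 ± 34). Of the NALCN partners, Fam155a was at 516 ± 82 and 532 ± 138, Unc79 at 42.0 ± 8.6 and 40.5 ± 10.6, and Unc80 at 53.2 ± 16.8 and 72.8 ± 21.4 (log2 fold change 0.45, SE 0.30, limma P = 0.166, exact permutation P = 0.200).

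The channel genes differed from one another in how their reads were spread over sites. Of the 39 genes, 6 had 1 site and 33 had at least 2. In several genes nearly all reads ended at a single place: site 1 held a mean of 98.1% of Cacnb3, 93.7% of Cacnb1 and 89.4% of Scn3b over the 8 libraries. Nalcn had 23 sites, yet site 1 held 84.4% of its reads. In others no site dominated, as in Cacnb2, where 25 sites shared the reads and site 1 held 13.5%, and in Cacna1e, where 24 sites did and site 1 held 18.3%. Scn1a (18 sites, 22.1%) and Cacna2d3 (17 sites, 19.2%) were spread in a like way. Sites with few reads make up most of these long lists, since 211 of the 314 sites had fewer than 16 reads in every single library.

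**Figure D3:**
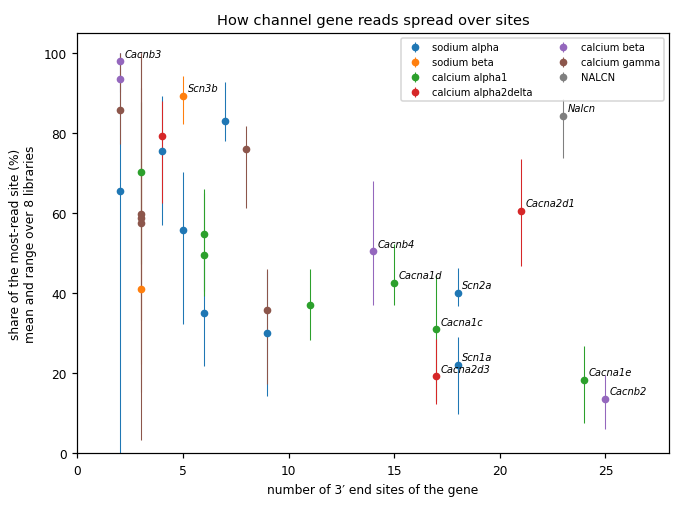
Share of the most-read site in its gene (%, mean and range over 8 libraries) against the number of sites, for 31 channel genes with at least 2 sites, coloured by family. Nalcn stands at 23 sites with 84.4%, and Cacnb2 at 25 sites with 13.5%.

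Cacna2d1 used a pair of exonic sites for most of its reads, 3440 bases apart on the minus strand of chromosome 4. Site 1 (chr4:15710408-15710431) held 423, 447, 620 and 723 normalized counts in air control and 538, 585, 438 and 844 in cannabis libraries. Site 2 (chr4:15706968-15706993), which is further downstream on that strand, held 217, 348, 277 and 135 and then 130, 266, 415 and 298. The downstream site's share of the gene was 27.4% ± 10.8 (SD, n = 4) in air control and 28.2% ± 11.9 in cannabis libraries, so the group means differed by less than the spread within either group (log2 fold change of the share 0.07, SE 0.54, limma P = 0.901, exact permutation P = 0.886). The 95% interval for that ratio, from 0.480-fold to 2.29-fold, is wide, and a fold change of the ratio is not a fold change of the share.

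The libraries with the most empty sites, air control 4 and cannabis 1, also lay together in several of these shares. Air control 4 was the shallowest library, and cannabis 1 (1919709 reads) was about as deep as air control 2 (1941129 reads). The cause of the likeness was not tested. Cacna2d1 site 2 held 13.7% and 16.1% of the gene in them and 24.5% to 44.4% in the other 6. Cacnb4 site 1 held 68.0% and 64.5%, against 37.0% to 55.3%. Cacna1c site 1 held 14.3% and 13.1%, against 29.1% to 44.6%. The same pair was high in 2 further sites, Cacna1e site 5 (20.3% and 14.9%, against 0% to 4.37%) and Cacna2d2 site 3 (25.0% and 20.5%, against 2.44% to 8.87%). Over the 67 channel shares with a mean site level of at least 10 normalized counts, both libraries lay below the other 6 in 13 and above them in 5. The same count was not made over the shares of all genes. At all sites with a mean of at least 10, deviations of air control 4 and cannabis 1 from their group means correlated at 0.469. No other air control library correlated as highly with a cannabis library, so the likeness of the pair in site levels is not particular to channel genes. For shares this was not tested. Since 1 of the libraries is an air control and 1 a cannabis library, this pattern is not a difference between the groups, and these examples were chosen after their values were seen.

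**Figure D4:**
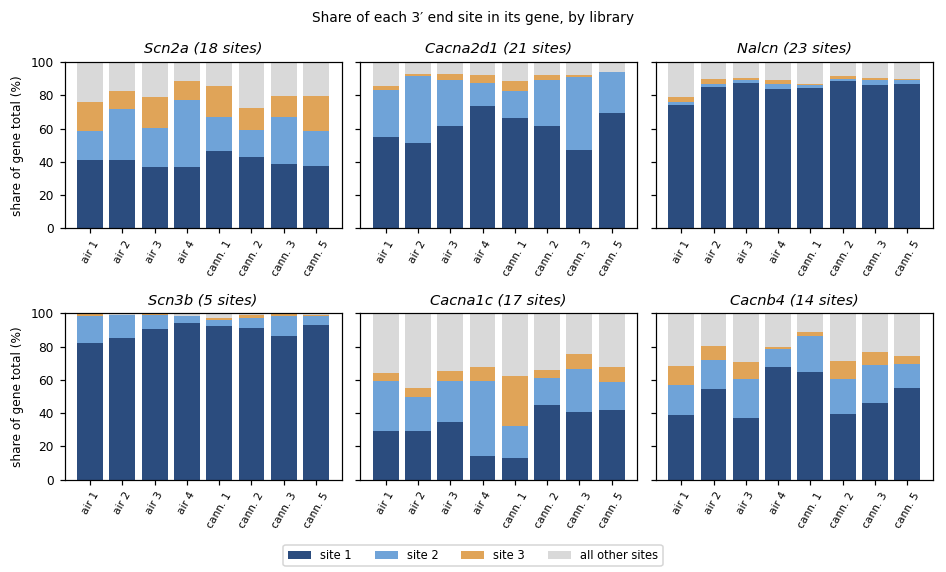
Share of sites 1, 2 and 3 and of all other sites in the gene total (%), by library, for 6 channel genes. In air 4 and cannabis (cann.) 1, Cacnb4 site 1 is at 68.0% and 64.5% and Cacna1c site 1 at 14.3% and 13.1%, while Nalcn site 1 is between 73.9% and 88.6% in all 8 libraries.

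The sites nearest to a difference between the groups were named after their values were seen, and the adjusted P of each by limma was 1.00. Cacna1e site 1, the most-read site of the R-type gene, held 35.8, 16.8, 38.3 and 17.9 normalized counts in air control and 48.4, 35.2, 54.1 and 55.3 in cannabis libraries (log2 fold change 0.88, SE 0.41, limma P = 0.0444, exact permutation P = 0.0857). Cannabis 2 lay inside the air control range and the other cannabis libraries above it. Its share of the gene was 14.05% ± 6.55 and 22.6% ± 3.0 (SD, n = 4), with limma P = 0.0893 and exact permutation P = 0.0571.

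Scn8a site 1 held 39.5, 33.5, 38.3 and 37.7 in air control and 18.6, 48.5, 10.8 and 11.5 in cannabis libraries (log2 fold change -0.97, SE 0.46, limma P = 0.0484, exact permutation P = 0.143). As in the total of Scn8a, cannabis 2 was high while the other 3 were below every air control library. Cacna1d site 4 held 25.6, 11.97, 26.2 and 19.9 and then 12.4, 7.3, 15.7 and 3.8 (log2 fold change -1.11, SE 0.50, limma P = 0.0369, exact permutation P = 0.0857), and the groups overlapped. Cacna1d site 6 held 5.85, 0, 6.04 and 0 and then 4.97, 7.31, 3.94 and 12.3, and had the smallest limma P of any channel share (P = 0.0224, exact permutation P = 0.0857). The log2 fold change of its ratio to the gene's other sites was 1.76 (SE 0.71). Both libraries at 0 allow up to 3.59 (air control 2) and 5.96 (air control 4) normalized counts. Without air control 3 this share had limma P = 0.00960 and exact permutation P = 0.114, with adjusted P of 0.994.

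The remaining ones were rarely read. Scn3b site 3 averaged 2.62 ± 2.86 and 6.85 ± 3.85 normalized counts (SD, n = 4, limma P = 0.0463, exact permutation P = 0.114), and Scn1a site 8 averaged 5.23 ± 3.75 and 1.21 ± 1.26 (limma P = 0.0337, exact permutation P = 0.0857). In Nalcn, site 3 held 2.48% ± 0.73 of the gene in air control and 1.04% ± 0.47 in cannabis libraries (limma P = 0.0458, exact permutation P = 0.0571), and site 10 held 1.02% ± 0.48 and 0.323% ± 0.299 (limma P = 0.0434, exact permutation P = 0.0571). These minor ends are a small part of Nalcn beside its site 1, which held 82.5% ± 5.9 and 86.4% ± 1.8.

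Air control and cannabis libraries did not overlap at 5 of the 314 sites, a share of 1.59% beside 2% of all sites, and at 5 of 308 shares, 1.62% beside 2.04% of all shares. No gene total was free of overlap, beside 1.98% of all totals. The sites were Cacnb2 sites 2 and 12 and Scn2a site 12, lower in cannabis libraries, and Nalcn site 9 and Cacna1e site 20, higher in them. Cacnb2 site 2 had the tightest groups of these, with 13.2, 14.4, 13.4 and 15.9 normalized counts in air control and 9.93, 10.6, 7.87 and 9.22 in cannabis libraries. Groups without overlap always have the smallest exact permutation P that 4 against 4 rats can give. That P was therefore fixed by how these 5 sites were picked and is not a separate test of them. Beside this exact permutation P, limma gave P = 0.229 for Cacnb2 site 2. The limma fit shares its estimate of the spread over sites of like level.

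The shares without overlap included Scn4a site 1 (limma P = 0.0761, with the exact permutation P again fixed by the lack of overlap). This site held 83.3%, 79.2%, 76.5% and 89.5% of Scn4a in air control and 57.1%, 76.1%, 74.3% and 68.9% in cannabis libraries. The lowest air control and the highest cannabis value were 76.5% and 76.1%. Cacna2d2 site 2, Cacnb2 site 2 and Scn1a site 12 had lower shares in cannabis libraries and Cacna1e site 20 higher ones.

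**Figure D5:**
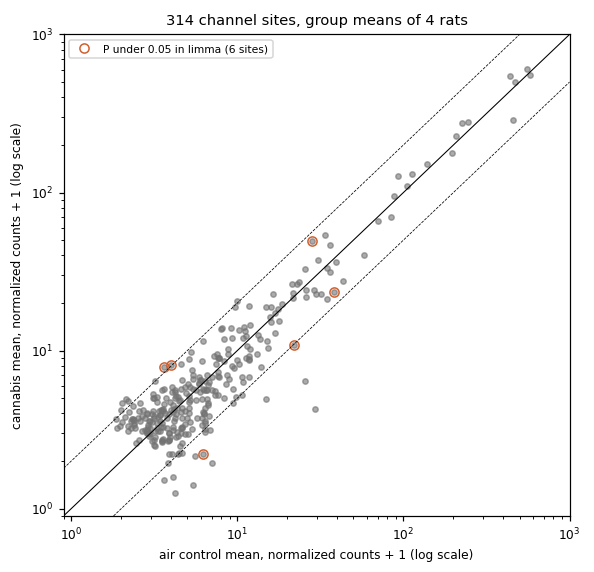
Mean normalized count + 1 (log scales) of each of the 314 channel sites in 4 cannabis against 4 air control rats, with the line of equality and dashed lines at 2-fold. The 6 circled sites had limma P under 0.05, and sites with few reads scatter most.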

How the data were processed

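Per the labels and the study's methods, the authors made WTTS-Seq libraries from hypothalamic RNA. They trimmed leading T bases, aligned reads with TMAP 3.4.1 to Rnor_6.0 and clustered read ends with a 24-nt window. They dropped clusters of fewer than 16 reads and named genes with Cuffcompare 2.2.1 against NCBI annotation release 106. The methods name 8 rats per group and 8 libraries in all, built for each individual sample, and each library is taken here as 1 rat. The deposited values are a signal per site: read counts divided by a library size factor (normalized counts). Dividing by the value of 1 read gave whole reads for 100% of values within 0.001 in each library. Total reads per library, given in the results, set the precision. Site positions were taken from the study's site table where symbol and all 8 values matched (9 channel sites).

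Sites, gene totals and site shares (log2 of site + 1 over the other sites of the gene + 1) were fitted over the whole table with limma 3.58.1 (R 4.3.3) on log2(value + 1), cannabis minus air control, with no covariate and Benjamini-Hochberg adjustment over all features. Single values were tested with the 2-sided exact permutation test, by the absolute difference of the group means. Where libraries were left out, its P was that of the smaller tail, doubled. By that doubling 4 against 3 or 3 against 3 rats cannot reach P under 0.05. The absolute difference could give a smaller P for 4 against 3, which was not computed. edgeR 4.0.16 and DESeq2 1.42.0 on the recovered reads, other pseudocounts, a mean filter, equal library totals, no variance trend, a replicate block and leaving out libraries were alternatives. Scripts were tested on simulated data. The members, the partner and marker lists and the tests were chosen with earlier results of these data known. Named genes are the most-read gene of each family, all genes with a mean total of at least 100 or under 10 normalized counts, all members past a threshold and all sites with a position; others were named after their values were seen. Of 98356 sites, 64313 carried a symbol, and sites without one enter no total. The study's site table also holds the authors' own comparison, which was not used. Results for some members are counted in the totals but not reported here by name. No sequence around the sites was analysed here.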

Additional observations from a re-analysis of the deposited data

Results flagged for a closer look

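In 5 of 100 groups of 4 libraries tested among the named channel totals, sites and shares (5%), 1 library lay further from the other 3 than Dixon's 95% limit for 4 values allows, and chance alone gives about 1 in 20. Air control 4 was high in the Scn2a total (2345 normalized counts, the others from 1160 to 1323) and in the Cacna1c total (166.8, the others from 123.3 to 129.6). Cannabis 5 was low in the Cacng8 total (160.5, the others from 253.3 to 260.8) and at Cacng8 site 1 (98.31, the others from 198.8 to 207.4), which are not independent of each other. Cannabis 1 was high in the share of Scn3a site 1 (92.93% of the gene, the others from 81.38% to 83.26%).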

How the results depend on the processing

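The counts of called channel sites, gene totals, shares and adjusted calls stayed at 0 when the pseudocount was 0.5 or 5, when features averaging under 10 normalized counts were dropped, and with equal library totals, no variance trend and the replicate block, and those of sites and gene totals also with edgeR and DESeq2. When libraries were left out 1 at a time, 0 to 1 sites, 0 to 1 gene totals and 0 to 1 shares were called: 1 site (Scn8a site 1) without cannabis 2, 1 gene total without each of air control 3, cannabis 3, air control 4 (Scn4b) and cannabis 2 (Scn8a), and 1 share (Cacna1d site 6) without air control 3. Without both air control 4 and cannabis 1, an alternative chosen after seeing the data, 1 site and 1 gene total were called (both Scn4b). Among the named totals, direction reversed in 13 instances, and P was above 0.5 in each. These were Cacna2d1 (-0.01 without cannabis 5, from 0.10), Cacnb4 (-0.01 without air control 2 and 0.00 without cannabis 1, from 0.07), Cacng8 (0.01 with the replicate block and 0.05 without cannabis 5, from -0.12), Scn2a (0.09 with the replicate block, 0.12 without air control 4, 0.00 without air control 4 and cannabis 1, and 0.01 without its site on the opposite strand, from -0.12), and Scn3b (-0.05 without air control 3, -0.02 without cannabis 3, -0.01 by edgeR and -0.02 by DESeq2, from 0.05). Leaving out 1 library at a time, these log2 fold changes ranged from -0.01 to 0.19 (Cacna2d1), -0.01 to 0.16 (Cacnb4), -0.22 to 0.05 (Cacng8), -0.23 to 0.12 (Scn2a) and -0.05 to 0.10 (Scn3b). The cause was not tested, apart from the libraries and the site left out. Replicate numbers 1, 2 and 3 occur in both groups. Deviations from the group means of same-numbered libraries correlated at -0.23, 0.08 and -0.00, with a mean of -0.05 beside 0.02 for libraries of different numbers. The replicate block left all 4 counts at 0, but air control 4 and cannabis 5 have no same-numbered partner. Those libraries add nothing to the difference in that fit, so its counts cannot show whether the numbers pair the samples. Depth limits the precision, since 211 of the 314 sites had under 16 reads in every library and the median SE of a site's log2 fold change was 0.63, against 0.28 for a gene total.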
